A study of Mus musculus with 6 samples.

Results

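Among the transcripts of whole e15.5 mouse pancreas, 40 genes of skeletal muscle were followed for their signals on a single control array, *Jarid2* WT replicate 3. They were taken by name from the 18194 genes that the arrays measure with a probe set of their own, as listed genes of the sarcomere, of the transcription factors that start muscle differentiation, of calcium handling, of the acetylcholine receptor and of muscle metabolism. The list was chosen by signals of earlier results on these arrays, in which skeletal muscle transcripts were high on that array, so the values on that array against the others are a description and carry no test. The probe set with the highest mean log2 value over the 6 arrays stood for each gene.

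RNA came from the pancreas of C57BL/6 embryos at e15.5, in 3 *Jarid2* WT samples with the genotype labelled wild-type and 3 samples with a pancreas-specific knockout of *Jarid2*, called *Jarid2* Δpanc. *Jarid2* encodes a protein that works with the Polycomb complex which methylates histone H3. In *Jarid2* Δpanc embryos a floxed *Jarid2* allele is deleted by Cre from the Pdx1 promoter, which is active in pancreatic progenitors, and the study describes the recombination as mosaic and confined to the epithelium. Every sample started from 50 ng of RNA and went through 2 cycles of cDNA synthesis. Neither the sex of the embryos nor a pool of embryos is given in the labels, and p-values measure only the spread between these samples.

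Skeletal muscle forms when the myogenic factors MyoD, *Myf5*, Mrf4 (the *Myf6* protein) and myogenin bind E-boxes and, together with MEF2 proteins, switch on the genes of the contractile apparatus. The fibre is built of thick filaments of myosin and thin filaments of actin, anchored at the Z-disc and held by titin. Fetal muscle uses embryonic and perinatal myosins, cardiac isoforms of actin and troponin T, and an acetylcholine receptor with a γ subunit, which are exchanged for adult forms around and after birth. Healthy pancreas has smooth muscle in its vessels but no skeletal muscle fibres.

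The start sites of the member genes are shown first, since the E-box and the MEF2 and serum response factor (CArG) boxes are the letters through which muscle genes are known to be read. The windows come from RefSeq on GRCm38.p6 and run from 250 bases before to 50 bases after the transcription start. The 4 chosen belong to a myogenic factor, to both actins and to a fetal myosin. Capitals mark exact matches to the patterns searched for E-boxes, CArG boxes and MEF2 boxes.
Myog chr1:134289754-134290053 (plus strand): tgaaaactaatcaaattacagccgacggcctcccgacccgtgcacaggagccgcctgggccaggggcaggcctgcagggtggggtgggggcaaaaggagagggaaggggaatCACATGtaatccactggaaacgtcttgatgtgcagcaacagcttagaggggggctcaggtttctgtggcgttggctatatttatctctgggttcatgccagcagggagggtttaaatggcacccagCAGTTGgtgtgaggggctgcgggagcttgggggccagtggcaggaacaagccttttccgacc
Acta1 chr8:123894726-123895025 (minus strand): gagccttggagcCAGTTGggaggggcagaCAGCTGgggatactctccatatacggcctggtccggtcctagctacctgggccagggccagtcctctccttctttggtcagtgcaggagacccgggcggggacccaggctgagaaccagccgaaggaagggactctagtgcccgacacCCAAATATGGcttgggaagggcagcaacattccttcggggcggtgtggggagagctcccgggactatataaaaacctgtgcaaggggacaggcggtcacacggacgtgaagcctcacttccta
Actc1 chr2:114052826-114053125 (minus strand): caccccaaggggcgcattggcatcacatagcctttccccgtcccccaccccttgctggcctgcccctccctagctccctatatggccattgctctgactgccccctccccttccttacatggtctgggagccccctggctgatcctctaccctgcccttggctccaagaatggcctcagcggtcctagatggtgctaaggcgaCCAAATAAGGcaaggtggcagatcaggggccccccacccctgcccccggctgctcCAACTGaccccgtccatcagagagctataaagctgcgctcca
Myh8 chr11:67276874-67277173 (plus strand): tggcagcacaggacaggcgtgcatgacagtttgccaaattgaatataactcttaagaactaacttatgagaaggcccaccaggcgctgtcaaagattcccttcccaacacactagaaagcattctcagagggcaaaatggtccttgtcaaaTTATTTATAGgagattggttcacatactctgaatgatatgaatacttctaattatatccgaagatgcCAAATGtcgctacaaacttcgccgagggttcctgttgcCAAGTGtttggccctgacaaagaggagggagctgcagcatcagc
The E-box was searched as CANNTG, of which CAGCTG is one form, and the MEF2 box and the CArG box by their usual consensus. Only exact matches were taken. The stretch ctatatttat of *Myog* departs from the MEF2 pattern in its last base and was therefore neither marked nor counted. All matches were counted on both strands. The members lie on many chromosomes, with 9 on chromosome 1, 8 on chromosome 7 and 6 on chromosome 2. A window was found for 32 of the 40 genes, 35 windows in all. CANNTG was in 85.7% of these windows against 72.3% of all 32851 windows, and CAGCTG in 48.6% against 16.3%. A MEF2 box was in 14.3% of member windows against 3.19% of all, in *Casq2*, *Klhl41*, *Myh8*, *Myoz2* and *Ttn*. A CArG box was in 11.4% against 1.63%, in *Acta1*, *Actc1* and *Ldb3*. TATAAA, which overlaps the MEF2 box of *Myh8*, was in 25.7% against 13.6%. These shares describe letters in the windows and were not tested.

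On the arrays in general, the deposited intensities had medians of 35 to 38 and 26.5% to 29.0% of probe sets under 16, the value to which lower signals were raised before log2 was taken. Sex-linked transcripts split the control samples. Signals of *Xist*, made from the silenced X chromosome, were 24, 12 and 4390 on the 3 *Jarid2* WT arrays and from 4197 up to 4905 on the *Jarid2* Δpanc arrays. Signals of the Y-linked *Eif2s3y* were 560, 506 and 9 on the same *Jarid2* WT arrays and 13 or less in *Jarid2* Δpanc, so that replicate 3 of the controls resembled the *Jarid2* Δpanc samples here. *Jarid2* itself had 335, 301 and 415 in *Jarid2* WT and 392, 398 and 355 in *Jarid2* Δpanc. The difference was 0.13 in log2 (standard error 0.14, limma adjusted p = 0.817), and since the position of its probes relative to the deleted exon is not known here, this does not check the deletion. Pancreatic transcripts were checked on the array with the muscle signal. The acinar enzyme genes *Ctrb1* and *Cpa1* had 15608 and 13350 there and 13150 to 17557 and 11960 to 15123 on the others. The summed signal of 21 pancreatic markers was 78713 there, below the 81731 and 81439 of *Jarid2* WT replicates 1 and 2. It was 67274 to 79793 in *Jarid2* Δpanc. Of the 21 markers, 3 were above every other array, 0 by 2-fold.

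Of the 40 muscle genes, 39 were higher on *Jarid2* WT replicate 3 than on each of the other 5 arrays. In 25 of them the signal was at least 4-fold above every other array, and in 34 at least 2-fold. Over all genes these shares were 13.9%, 0.291% and 0.638%. The log2 difference, taken as *Jarid2* WT replicate 3 minus the mean of the other 5 arrays, had a median of 3.22 over the 40 genes and of 0.00 over all genes, while the median SD of the members among the other 5 arrays was 0.32. In whole pancreas, a different number of cells of a type and a different amount of RNA per cell cannot be told apart. The summed signal of the 40 genes was 24616 on this array, which was 0.395% of the summed signal of all genes, and 919 to 1111 on the others, which was 0.0147% to 0.0185%.

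**Figure D1:**
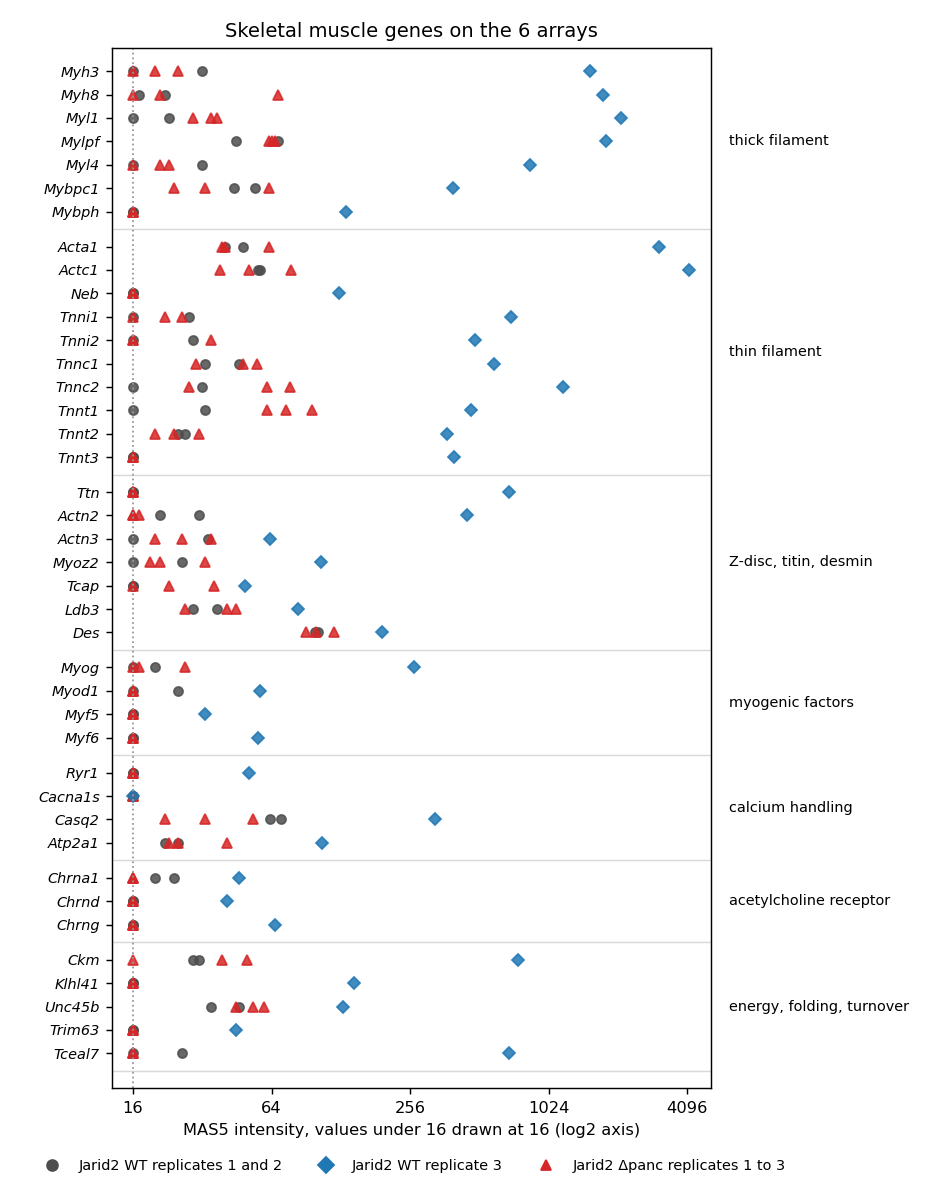
Signals of the 40 skeletal muscle genes (rows, by role) on a log2 axis of MAS5 intensity, with values under 16 drawn at 16 (dotted line). Each point is 1 array. The diamond of *Jarid2* WT replicate 3 lies to the right of the other 5 points in 39 rows, and in the row of Cacna1s all 6 points lie at 16.

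The myosin genes of the thick filament were among those with the widest gaps, and 7 of 7 thick filament genes were at least 4-fold above every other array, with a median log2 difference of 5.34. *Myh3*, the embryonic myosin heavy chain, had signals of 4, 32 and 1540 in *Jarid2* WT replicates 1 to 3 and 16, 20 and 25 in *Jarid2* Δpanc. *Myh8*, the perinatal heavy chain, had 17, 22 and 1758 in *Jarid2* WT and 68, 21 and 15 in *Jarid2* Δpanc. In both genes the third control array stood alone, 48.1-fold and 25.9-fold above the next array, and the remaining arrays of the 2 groups overlapped. The essential light chain of fast fibres, *Myl1*, had 14, 23 and 2110 against 37, 29 and 35, a log2 difference of 6.30, the largest of the 40 genes. *Mylpf*, the regulatory light chain of fast fibres, had 45, 68 and 1820 against 66, 64 and 62. *Myl4*, a light chain of the atrium that fetal skeletal muscle also makes, had 4, 32 and 847 against 23, 13 and 21. The 3 light chains were 26.5-fold to 57.0-fold above the next array. The myosin-binding protein genes had narrower gaps. *Mybpc1*, the slow form of myosin-binding protein C, had 392 on *Jarid2* WT replicate 3 and 24 to 62 on the others. *Mybph*, which codes for the related protein H, had 135 there and 1 to 2 elsewhere, at least 8.44-fold higher when the lower values are set to 16.

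The thin filament gave the same picture in 10 of 10 genes, with a median log2 difference of 4.59. *Acta1*, the skeletal α-actin, had 40, 48 and 3076 in *Jarid2* WT and 39, 40 and 62 in *Jarid2* Δpanc. *Actc1*, the cardiac α-actin that is the main actin of early skeletal muscle, had 57, 56 and 4160 against 51, 38 and 78. The gaps to the next array were 49.6-fold and 53.3-fold, and the 2 control arrays without the muscle signal lay within the *Jarid2* Δpanc range. *Neb*, the nebulin that runs along the thin filament, had 126 on the one array and 1 to 11 on the others, at least 7.88-fold.

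Troponin, the calcium switch of the thin filament, was measured in 7 genes covering slow, fast and cardiac forms. The inhibitory subunits *Tnni1* of slow and *Tnni2* of fast fibres had 704 and 491 on *Jarid2* WT replicate 3, against 6 to 28 and 2 to 35 on the others. Among the calcium-binding subunits, *Tnnc2* of fast fibres had 32, 10 and 1181 in *Jarid2* WT and 61, 77 and 28 in *Jarid2* Δpanc. *Tnnc1* of slow and cardiac muscle had 592 there and 30 to 55 elsewhere. Slow and fast forms were therefore high together. The tropomyosin-binding subunits differed in the width of the gap. *Tnnt3*, the fast form, had 397 on the one array and 2 to 15 on the others, at least 24.8-fold. *Tnnt2*, the cardiac form of fetal muscle, had 368 and 20 to 31, an 11.9-fold gap. *Tnnt1*, the slow form, had 8, 33 and 468 in *Jarid2* WT and 96, 61 and 74 in *Jarid2* Δpanc, a 4.87-fold gap, the narrowest of the thin filament.

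Genes of the Z-disc, titin and desmin were less alike, with 2 of 7 at least 4-fold above every other array and a median log2 difference of 1.33. *Ttn*, the titin spring that spans the sarcomere, had 9, 10 and 690 in *Jarid2* WT and 3, 2 and 2 in *Jarid2* Δpanc, at least 43.1-fold higher on the one array. *Actn2*, the α-actinin that crosslinks actin at the Z-disc, had 31, 21 and 452 against 3, 12 and 17. These are the pair with wide gaps. *Actn3*, the fast α-actinin, had 63 on *Jarid2* WT replicate 3 and 16 to 35 on the others. *Myoz2*, a calcineurin-binding Z-disc protein of slow fibres, had 105 and 8 to 33. *Tcap*, the cap of titin at the Z-disc, had 49 and 7 to 36. In these genes the third control array was still the highest, by 1.36-fold to 3.18-fold. *Ldb3*, a PDZ-LIM protein of the Z-disc, had 83 there and 27 to 45 elsewhere. *Des* encodes the intermediate filament desmin, which smooth muscle also makes, and its signals were 102, 99 and 192 in *Jarid2* WT and 119, 100 and 90 in *Jarid2* Δpanc. Its log2 difference of 0.92 was the smallest of the 39 genes that lay above every other array.

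All 4 myogenic factors were highest on the same array, and 1 of them by more than 4-fold. *Myog*, the myogenin that drives terminal differentiation, had 20, 11 and 266 in *Jarid2* WT and 7, 27 and 17 in *Jarid2* Δpanc, 9.85-fold above the next array. *Myod1*, which commits cells to muscle, had 57 on *Jarid2* WT replicate 3 and 3 to 25 on the others. *Myf5* and *Myf6*, neighbouring genes on chromosome 10, had 33 and 56 there and at most 13 and 16 elsewhere. For these 2 genes the other 5 arrays lay at or under 16. The ratio of 2.06 for *Myf5* is therefore a lower bound, and the ratio of 3.50 for *Myf6* is against a signal of 16. The gap of *Myog* in log2 to the next array was 3.30, against 1.04 to 1.81 in the other myogenic factors, which are single values from single arrays and were not tested.

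Calcium handling genes had a median log2 difference of 1.84, with 1 of 4 at least 4-fold above every other array. *Casq2*, a calsequestrin that stores calcium in the sarcoplasmic reticulum of slow and cardiac muscle, had 70, 63 and 329 in *Jarid2* WT and 53, 22 and 33 in *Jarid2* Δpanc. *Atp2a1*, the calcium pump of fast fibres, had 106 on the one array and 22 to 41 on the others. *Ryr1*, the calcium release channel, had 51 there and 1 to 14 elsewhere, at least 3.19-fold. *Cacna1s*, the voltage sensor that opens this channel, was the 1 member without any difference, at 8 on *Jarid2* WT replicate 3 and 1 to 7 elsewhere, all under 16.

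The acetylcholine receptor genes were dim throughout. *Chrng*, the γ subunit of the fetal receptor, had 66 on *Jarid2* WT replicate 3 and 3 to 6 on the others, at least 4.12-fold, and lay just inside the 4-fold limit. Its neighbour on chromosome 1, *Chrnd* for the δ subunit, had 41 and 3 to 16. *Chrna1*, the α subunit, had 20, 24 and 46 in *Jarid2* WT and 2, 13 and 16 in *Jarid2* Δpanc. All 3 subunits were highest on the same array. At the 4-fold limit, which is 2.00 in log2 above the next array, the members just inside were *Chrng* at 2.04 and *Casq2* at 2.23, and those just outside were *Myf6* at 1.81 and *Ryr1* and *Myoz2* at 1.67.

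The remaining 5 members are genes of energy supply, protein folding and turnover, together with *Tceal7*, and 3 of them were at least 4-fold above every other array. *Ckm*, the muscle creatine kinase, had 31, 29 and 749 in *Jarid2* WT and 39, 50 and 16 in *Jarid2* Δpanc. *Klhl41*, a kelch protein that stabilizes the thin filament, had 146 on the one array and 5 to 16 on the others. *Tceal7*, named for its likeness to a transcription elongation factor, had 26, 15 and 687 against 2, 5 and 9. The gap to the next array was 3.90 in log2 for *Ckm*, 4.72 for *Tceal7* and 3.19 for *Klhl41*. *Unc45b*, the chaperone that folds myosin, had 131 on *Jarid2* WT replicate 3 and 35 to 59 elsewhere. *Trim63*, a ubiquitin ligase of the sarcomere, had 45 and 3 to 14.

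**Figure D2:**
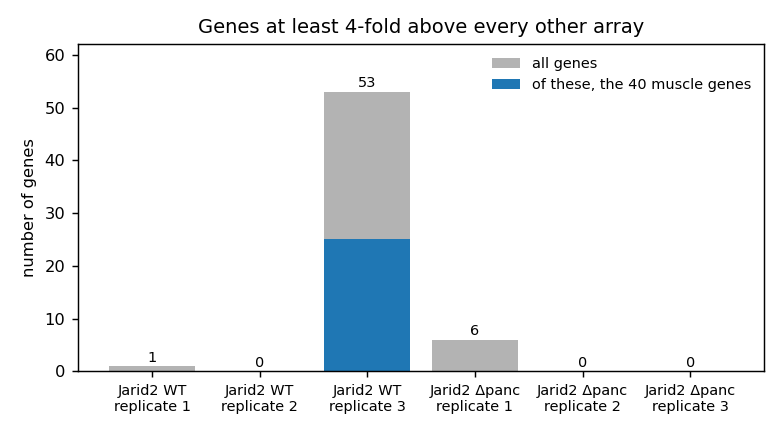
Number of genes (vertical axis) that were at least 4-fold above every other array, for each of the 6 arrays (bars). The bar of *Jarid2* WT replicate 3 holds 53 genes, of which 25 are among the 40 muscle genes (blue), and the other 5 bars hold 0 to 6 genes and none of the 40.

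No other array had a comparable set. The count of genes at least 4-fold above every other array was 53 on *Jarid2* WT replicate 3, 6 on *Jarid2* Δpanc replicate 1, 1 on *Jarid2* WT replicate 1 and 0 on the other 3 arrays. Members were 25 of the 53, or 47.2%. Without *Jarid2* WT replicate 3, the highest of the remaining 5 arrays was *Jarid2* WT replicate 1 or 2 in 7 members each. It was *Jarid2* Δpanc replicates 1, 2 and 3 in 10, 6 and 10 members. These counts used signals before low values were raised to the floor. In 12 members all 5 of these arrays lay at or under the floor, so their highest array carries no information. The counts were not set against all genes and were not tested. No gene was at least 4-fold below every other array on any of the 6.

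Of the 28 other genes at that level, 16 were in the further lists of skeletal muscle genes and 12 in none of the lists. *Atp1b4*, a muscle relative of the sodium pump β subunits, had 10, 3 and 395 in *Jarid2* WT and 1, 8 and 12 in *Jarid2* Δpanc. *Myh7*, the slow myosin heavy chain, had 6, 5 and 355 against 14, 13 and 7. Both were thus at least 22.2-fold above the other arrays. *Myom2*, a protein of the M-band, had 274 there and 1 to 15 elsewhere. *Smpx*, a small muscle protein, had 261 and 2 to 15. *Sln*, the sarcolipin that restrains the calcium pump, had 457 and 15 to 33. *Itgb1bp2* (melusin), *Apobec2* and the Z-disc gene *Myot* had 297, 230 and 151, with 9.44-fold to 15.6-fold over the next array or the floor. The cytokine *Il17b* had 118 and the carbonic anhydrase *Car3* had 264, with 5 to 13 and 11 to 38 on the others. *Pgam2*, *Mylk4*, *Csrp3*, *Rbm24* and *Synpo2l*, from glycolysis to the Z-disc, completed the 15 widest gaps outside the members with 109 to 258 on the one array. The membrane fusion genes *Mymx* and *Mymk*, chosen after their values were seen, had 68 and 67 there and 1 to 7 and 4 to 21 elsewhere.

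Of 96 further skeletal muscle genes in 6 lists, 86 were measured, and 16 of them were at least 4-fold above every other array, with a median log2 difference of 0.87. Of the lists, metabolism and turnover had 5 of 20 at that level, other sarcomere proteins 6 of 20, calcium and membrane proteins 3 of 18 and other heavy chains 1 of 5. The heavy chain genes of adult fast fibres, which lie between *Myh3* and *Myh8* on chromosome 11, had narrower gaps than both neighbours or none. *Myh1* had 60 there and 1 to 16 on the others, a log2 difference of 1.91, and *Myh4* had 35 and 1 to 9, a difference of 1.13. The probe set of *Myh1* is of a type that can bind transcripts of more than 1 gene. *Myh2*, chosen after its values were seen, had 4 there and 4 to 17 on the others, a difference of -0.02. Proteins of the neuromuscular junction had 0 of 9 at least 2-fold above every other array, with 109 for *Chrnb1* on this array and 61 to 93 elsewhere. The list of progenitor genes and their regulators had 1 of 15 at least 4-fold above every other array. In this list 10 of 15 were above every other array, against 13.9% of all genes, with a median log2 difference of 0.68. Of the 15, *Mef2a*, *Mef2d* and *Met* had log2 differences of 0.19, 0.18 and -0.09, and *Mef2c*, a partner of the myogenic factors, had 290 against 114 to 152. *Pax3* and *Pax7*, which mark muscle progenitors and were chosen after their values were seen, had 31 and 5 on *Jarid2* WT replicate 3 and 17 to 31 and 5 to 19 on the others. Both were dim on all arrays. *Vgll2*, *Msc*, *Lbx1* and *Cdh15* of the same list, also named after their values were seen, had log2 differences of 2.56, 1.47, 1.13 and 1.08.

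**Figure D3:**
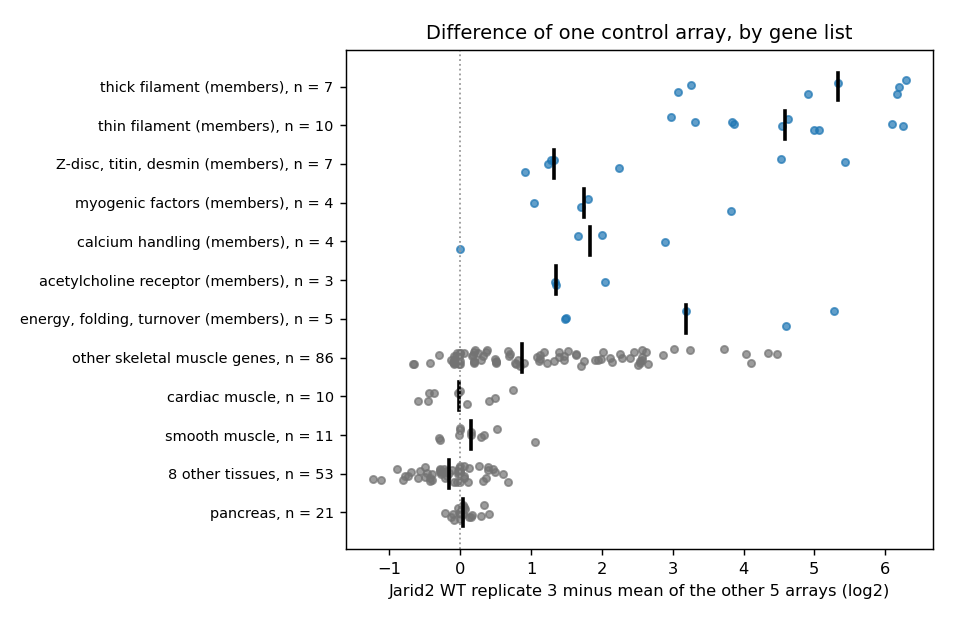
Log2 difference between *Jarid2* WT replicate 3 and the mean of the other 5 arrays (horizontal axis) for each gene (point) by list (rows), with the median of the list as a black bar and n as the number of measured genes. The medians are 5.34 and 4.59 for thick and thin filament genes, 0.87 for the other skeletal muscle genes and between -0.16 and 0.15 for cardiac muscle, smooth muscle, 8 other tissues and pancreas.

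Genes of other tissues were set beside the members in the same way. Of 10 cardiac genes, 0 were at least 2-fold above every other array, the summed signal was 184 on *Jarid2* WT replicate 3 and 141 to 191 on the others, and 4 of the 10 lay at or under 16. The highest were the atrial heavy chain *Myh6* with 27 and *Tbx20* with 27. Of 11 smooth muscle genes, 0 were 2-fold above every other array, and the sum was 2858 against 1873 to 3003, so that this array lay inside the range of the rest. *Acta2*, the smooth muscle actin, had 1538 there and 941 to 1527 elsewhere. Lists for tendon, cartilage and bone, epidermis, fat, nerve, gut, spleen, liver, and adrenal gland and kidney held 53 measured genes. None of them was 2-fold above every other array, and their sum was 3228 against 3521 to 5543. Of the 53 genes, 6 were above every other array, against 13.9% of all genes. These included 3 of the 4 fat genes, whose sum was 71 against 17 to 41, with signals of at most 26 on any array. The liver gene *Alb*, for serum albumin, was high on other arrays, at 751 in *Jarid2* WT replicate 2 and 790 in *Jarid2* Δpanc replicate 3 and 86 in *Jarid2* WT replicate 3.

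Several probe sets measured 11 of the members, and the 20 that were not used had mixed values. Of these, 12 were above every other array on *Jarid2* WT replicate 3, 4 by at least 4-fold, 3 had a log2 difference below 0 and 3 had 0.00. The further probe sets of *Chrng* were among those at 0.00, with at most 15 on all arrays. With the mean of all its probe sets the difference of *Chrng* was 0.68. The probe sets of *Ttn* had log2 differences of 5.43, 3.84, 2.15, 0.48, 0.39 and 0.23. For *Ldb3* the probe set used had 1.24, and a dimmer one with 2, 21 and 377 in *Jarid2* WT and 15, 8 and 14 in *Jarid2* Δpanc had 4.48. *Ckm*, *Myl4* and *Des* each had a second probe set at -0.27, -0.62 and -0.08, whose signals were at most 45 on all arrays. The choice of probe set included *Jarid2* WT replicate 3, and for *Ckm*, *Myl4* and *Ttn*, among others, that array decided it. On the other 5 arrays an unused probe set of *Ttn* had 12 to 28, against 2 to 10 for the one used. With the mean of all probe sets the differences of *Ckm*, *Myl4* and *Ttn* were 2.16, 2.36 and 2.09. The probe sets used for *Tnnt2* and *Casq2*, and for *Myom2* outside the members, are of types that can bind transcripts of more than 1 gene. A further probe set of *Tnnt2* had 4.24, beside 3.87 for the one used.

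The study set *Jarid2* Δpanc against *Jarid2* WT, and in that comparison the muscle genes had low fold changes when that control array was included. With all 6 arrays, the fold change was below 0 in 37 of 40 members and in 7896 of all 18194 genes. The median log2 value was -1.04 over the members and 0.00 over all genes. limma with Benjamini-Hochberg adjustment called 0 members lower and 0 higher, as over all genes (0.0% of genes in either direction). At an unadjusted p under 0.05 the counts were 0 and 0 members, against 4.44% of genes lower and 4.37% higher. *Myh3* had the lowest value, -2.21 (standard error 1.92, limma adjusted p = 0.815). The median SD of the members was 1.81 in *Jarid2* WT and 0.24 in *Jarid2* Δpanc, both in log2. The floor lowers the latter, since members with every *Jarid2* Δpanc signal at or under 16 have an SD of 0.00 there. Among the 50 genes with the lowest fold changes, 19 were members. The members were chosen by signals of *Jarid2* WT replicate 3, which is in this fit, so these counts and spreads are a description. With values under 16 set to 16, every *Jarid2* Δpanc array lay below every *Jarid2* WT array in 3 members, *Casq2*, *Chrna1* and *Actn2*, or 7.5%, against 5.64% of all genes, and above in 0 members, against 5.71%.

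Without *Jarid2* WT replicate 3, the median log2 fold change of the members was 0.00, with 12 below 0, 16 above 0 and 12 at 0, against 41.8% below 0 and 48.3% above 0 of all genes. The 12 at 0 lay at or under 16 on all 5 arrays, as did 9.82% of all genes. In this fit limma called 0 members lower and 0 higher after adjustment, against 0.0165% and 0.011% of all genes, which were *Eif2s3y*, *Uty* and *Cmtm1* lower and *Xist* and *Mapk4* higher (*Cmtm1* and *Mapk4* named after their values were seen). The 2 controls that remain and the *Jarid2* Δpanc samples differ in these sex-linked transcripts, so that sex and genotype cannot be told apart. At an unadjusted p under 0.05 there were 2 members lower and 2 higher, against 5.12% and 4.92% of all genes. The fold change of *Myh3* was -0.18 (standard error 0.41), of *Acta1* 0.07 (0.27), of *Actc1* -0.08 (0.36) and of *Myog* 0.12 (0.30), each within its standard error of 0. Of the 50 genes with the lowest fold changes in this fit, 1 was a member.

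The 4 members with an unadjusted p under 0.05 in this fit were dim genes. *Tnnt1* had 8 and 33 in the 2 controls and 96, 61 and 74 in *Jarid2* Δpanc, with a limma log2 fold change of 1.72 and a standard error of 0.42 (adjusted p = 0.366). *Myl1* had 14 and 23 against 37, 29 and 35, with 0.80 and a standard error of 0.22 (limma adjusted p = 0.408). Both were higher in 3 of 3 *Jarid2* Δpanc samples. *Actn2* and *Chrna1* were lower in 3 of 3, at -0.64 (standard error 0.20) and -0.45 (standard error 0.09), with limma adjusted p of 0.45 and 0.293. *Casq2*, the member with the lowest value, had 70 and 63 against 53, 22 and 33, with -0.98 and a standard error of 0.44 (limma adjusted p = 0.619). None of these differences passed the threshold. With *Jarid2* WT replicate 1 left out as well, *Chrna1* was called lower, and with *Jarid2* WT replicate 2 left out in its place *Chrna1*, *Myod1* and *Tceal7* were, in all of which every *Jarid2* Δpanc value lay at or under 16 and a single control remained. With values under 16 set to 16, the groups did not overlap in 5 members, 3 with *Jarid2* Δpanc below and 2 above, or 7.5% and 5.0%, against 10.5% and 10.8% of all genes.

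**Figure D4:**
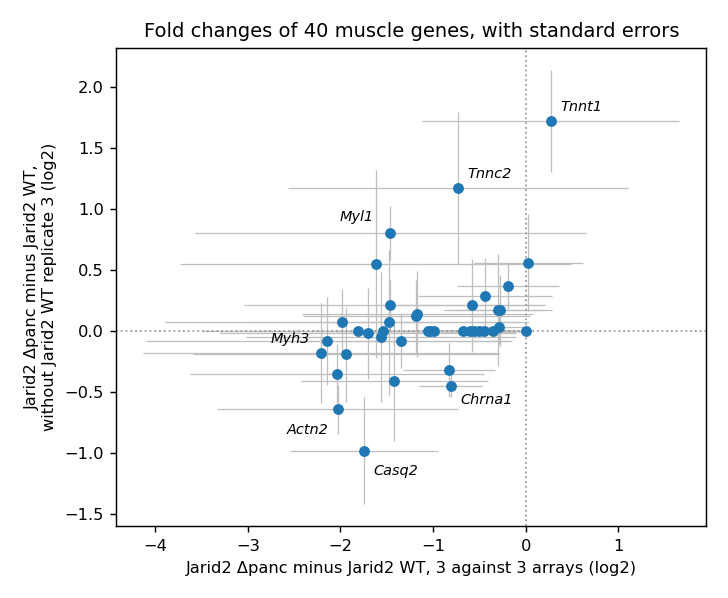
Log2 fold change of each of the 40 muscle genes in *Jarid2* Δpanc over *Jarid2* WT with all 3 controls (horizontal axis) and without *Jarid2* WT replicate 3 (vertical axis), with bars of 1 standard error from limma. The same *Jarid2* Δpanc arrays enter both axes. Values reach -2.21 on the horizontal axis, and on the vertical axis they lie between -0.98 for Casq2 and 1.72 for Tnnt1.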

How the data were processed

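The arrays are Affymetrix mouse genome arrays with 45101 probe sets. The deposited values are linear intensities, whole numbers made with MAS5 according to the submitters' notes (version not given in the sources used here), and the mean after trimming 2% at each end was 150 on all 6. The methods of the study name RMA, which needs scanner files not used here. A description label names islets, whereas the other labels name e15.5 pancreas, which was followed. Scan dates and detection calls were not used here. Of the probe sets, 34958 have 1 gene symbol, and 932 with several symbols and 9211 unnamed here were left out.

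Here the intensities were raised to a floor of 16 and put on a log2 scale. Each of 18194 genes was represented by its brightest probe set over all arrays. Fold changes came from limma 3.58.1 and R 4.3.3 (lmFit, eBayes, Benjamini-Hochberg over all genes, threshold 0.05), with 4 residual degrees of freedom, or 3 without *Jarid2* WT replicate 3. The fit was tested on simulated data. The members, the lists and the comparison without that array were chosen with earlier results of these data known. All members could be named, and of other genes the 15 with the widest gap above the other arrays and the 4 with the highest signal on that array in each list. Alternatives covered floors, probe set choice, normalization, filters, variance model, threshold, a replicate block and arrays left out.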

Additional observations from a re-analysis of the deposited data

How the results depend on the processing

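Over 11 other settings for the signal on *Jarid2* WT replicate 3, the 440 log2 differences of the members were above 0 in 422 cases and at 0 in 18, of which 10 came from a floor of 64 and the rest were *Cacna1s*, and none lay below 0. The count of members at least 4-fold above every other array was 21 to 27 over these settings, and 34 and 20 at 2-fold and 8-fold. The median difference of 3.22 became 4.05 with a floor of 1, 2.20 with a floor of 64 and 2.58 with the mean of all probe sets. For the other skeletal muscle genes the count of 16 became 7 with a floor of 64, 33 at 2-fold and 5 at 8-fold. Over all genes, 53 became 31 with a floor of 64, 116 at 2-fold and 28 at 8-fold.

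With all 6 arrays, 0 members were called under each alternative. Over all genes the 0 called lower became 2 with quantile normalization and 8, 3 and 2 without *Jarid2* WT replicate 2, *Jarid2* WT replicate 3 and *Jarid2* Δpanc replicate 3. The median log2 fold change ranged from -1.72 to 0.00 with 1 array left out, the latter without *Jarid2* WT replicate 3, and was -1.57 without *Jarid2* WT replicate 1 and -1.72 without replicate 2. Without *Jarid2* WT replicate 3, the median of 0.00 became 0.17 with a floor of 1. With 1 further array left out, members called lower ranged from 0 to 3: *Chrna1* without *Jarid2* WT replicate 1, and *Chrna1*, *Myod1* and *Tceal7* without replicate 2, where all *Jarid2* Δpanc values lay at 16 and the lone control is assumed to vary like the other group. Members called higher were 0. Over all genes the 3 called lower became 121 and 200 in these 2 fits and 0 without any 1 of the *Jarid2* Δpanc arrays, 6 with the mean of all probe sets and 5 each with a floor of 64 and quantile normalization. Samples with the same number did not deviate together (correlations -0.02, -0.01 and -0.02), and with the replicate number as a block 0 members were called lower and 0 higher in both comparisons. The brightest probe set by the mean of linear values was tried after seeing the data and gave 26 members. The number of arrays and signals near background limit the precision.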

Other observations

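The probe sets left out for want of a single gene name held few signals of the same kind. Of 932 probe sets with several gene names, 2 (0.215%) were at least 4-fold above every other array on *Jarid2* WT replicate 3, and of 9211 without a name here, 0 were. Among the 34958 probe sets with 1 gene there were 64 (0.183%).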
